A study of Mus musculus with 12 samples.

Results

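The response of primary cardiomyocytes to mouse oncostatin M (mOSM) was measured in 6 of the 12 libraries of the series, 3 of cells treated with mOSM and 3 of cells treated with PBS. Of the 22915 genes in the table, the 13184 that reached 10 normalized counts in 3 or more of the 12 libraries were compared. The cells were isolated from hearts of adult C57/Bl6 mice, males aged 12 weeks, cultured in dishes and kept in normoxia for 24 h with either mOSM at 25 ng per mL, as the sample descriptions give the dose, or an equal volume of sterile PBS. The methods text of the study gives a lower dose. The other 6 libraries came from cells treated in the same way with mouse leukemia inhibitory factor (mLIF) or with hlOSM, an mOSM whose AB loop carries the human sequence, and they entered the fit and 1 comparison. The comparison asks which genes and functions respond to a ligand of the oncostatin M receptor (OSMR) but not of the leukemia inhibitory factor receptor (LIFR).

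Oncostatin M is a cytokine of the interleukin-6 family that is released mainly by activated myeloid and T cells. In the mouse it binds OSMR, which pairs with the shared subunit gp130 (Il6st) and passes the signal through Janus kinases to STAT3 and other STAT factors and through the MAP kinase and PI3K pathways. LIF uses a complex of LIFR and gp130, whereas hlOSM can use both receptors. In cardiomyocytes, oncostatin M is known for inducing a partial loss of the contractile phenotype and for protective effects after infarction.

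The deposited values are normalized counts, rounded to whole numbers and not divided by gene length, and library sums ranged from 2745748 to 2911891. These sums are not numbers of sequenced reads. The methods text of the study gives an average number of reads per library, but the depth of each single library is unknown. Genes at 0 made up 11.46% to 17.37% of the table, and both ends of this range were mOSM libraries, replicates 1 and 3. The test was limma's, run on log2-transformed values after adding 1, and genes with a Benjamini-Hochberg adjusted p under 0.05 over the 13184 genes are called raised or lowered. Errors of fold changes are standard errors from this fit (n = 3 libraries per condition). With 3 libraries against 3, an exact permutation test of a single gene could not go below p = 0.1. The sources do not say whether the 3 libraries of a condition came from separate preparations of cells, so that the p-values measure the spread between these libraries only. Only 0.0168% of the spread among libraries of a condition followed the replicate numbers, against 25% if numbers meant nothing. A common effect of the number was thus nearly absent, far below what numbers without meaning would leave. Whether such an effect was removed before deposit is not stated in the sources. With values like these, a fit that treats the libraries as independent can give p-values that are too small. Counts of genes from a fit blocked on the number are printed as well.

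Cardiomyocyte markers were present at high values, with titin (Ttn) at 1.14% to 1.17% of the total in PBS. The summed value of 10 cardiomyocyte markers was 49129 to 51093 in the PBS libraries and 34799 to 39057 in the mOSM libraries, and 7 of the 10 were lowered. Ttn alone makes up most of these sums, and the median change of the 10 markers was -0.28 on the log2 scale. Markers of other cell types were also present. The sum of 10 endothelial markers was 1401 to 1458 with PBS and 1711 to 1956 with mOSM (7 of 10 raised), and that of 10 markers of smooth muscle cells and pericytes was 1953 to 2315 with PBS and 1406 to 1495 with mOSM (7 of the 9 tested lowered). Fibroblast markers summed to 2524 to 2795 and 2606 to 3042 (2 raised and 5 lowered of 10), and macrophage markers to 364 to 388 and 396 to 450 (1 raised of 6 tested). Neutrophil markers did not exceed 12 and lymphocyte markers did not exceed 5 in any of the 6 libraries, and the summed erythroid markers did not exceed 1. In a culture of several cell types, fewer cells of a type and less RNA per cell cannot be told apart, and the part that these marker shifts had in the results below was not tested.

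Against PBS, mOSM raised 2031 of the 13184 genes (15.4%) and lowered 2089 (15.8%), 31.2% in all. With the replicate number as a block, 1648 were raised and 1682 lowered. Most of these changes were small: the change was under 1.5-fold in 60.6% of the rises and 62.0% of the falls. At least 2-fold, 370 genes were raised and 313 lowered, and at least 4-fold, 102 were raised and 40 lowered. The 3 libraries of a condition did not overlap with the 3 of the other in 40.1% of all genes tested, in 94.9% of those raised and in 93.7% of those lowered. Raised genes held 12.6% of the total value with PBS and 17.6% with mOSM. Lowered genes held 27.7% with PBS and 22.15% with mOSM. The median fold change over all tested genes was close to 0 on the log2 scale (-0.0043), and stayed within 0.01 of 0 after median-of-ratios or quantile rescaling.

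**Figure D1:**
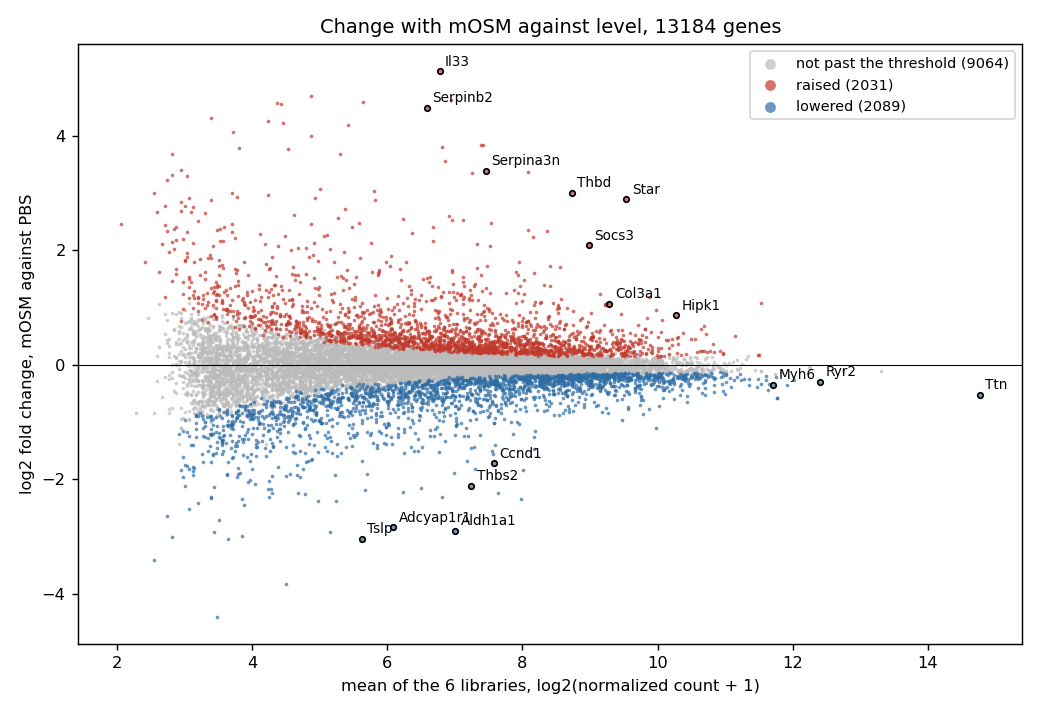
Each point is 1 of 13184 genes, plotted by its mean over the 3 PBS and 3 mOSM libraries (horizontal axis, log2 of normalized count + 1) and its log2 fold change with mOSM against PBS (vertical axis). The raised genes (2031, red) reach 5.13 with Il33, whereas Ttn, with the highest value, is among the lowered genes (2089, blue), and grey points did not pass the threshold.

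With a mean of at least 50 and no overlap between the 2 conditions required, the largest rise was that of Il33 (chr19:29925114-29960718). This gene encodes an alarmin of the interleukin-1 family. Its normalized counts were 11, 5 and 2 with PBS and 198, 183 and 251 with mOSM, a log2 fold change of 5.13 ± 0.34 (adjusted p = 1.71e-10, limma). The mOSM libraries were thus all far above the PBS libraries, where the values were low. Kbtbd11 (chr8:15011025-15033333), which encodes a Kelch and BTB domain protein, followed with 11, 13 and 4 with PBS and 219, 195 and 289 with mOSM (4.62 ± 0.27, adjusted p = 1.66e-11), although 24.8% of its exonic length overlaps with a gene on the other strand. Serpinb2 (chr1:107511423-107535478), plasminogen activator inhibitor 2, had 11, 5 and 6 with PBS and 141, 231 and 174 with mOSM (4.49 ± 0.22, adjusted p = 1.26e-12). That the libraries of the 2 conditions did not overlap in these genes follows from the selection.

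The next rises were in secreted and cell surface proteins. Abi3bp, a matrix protein, had 20, 18 and 25 with PBS and 292, 313 and 328 with mOSM (3.84 ± 0.12, adjusted p = 4.78e-16). Cpxm1, a secreted carboxypeptidase-like protein, had 28, 22 and 15 with PBS and 265, 317 and 367 with mOSM (3.84 ± 0.17), and the aggrecanase Adamts4 had 15, 15 and 12 with PBS and 184, 205 and 233 with mOSM (3.80 ± 0.15). In each case, all mOSM libraries lay far above all PBS libraries. Prg4, the joint lubricant lubricin, had 11, 27 and 16 with PBS and 248, 180 and 209 with mOSM (3.56 ± 0.23). Itgb8, an integrin subunit that activates latent TGF-beta, had 26, 30 and 23 with PBS and 272, 274 and 284 with mOSM (3.35 ± 0.12, adjusted p = 7.99e-15). The Itgb8 values varied little within both conditions. The acute phase serpin Serpina3n rose by 3.39 ± 0.23 and the metalloreductase Steap4 by 3.37 ± 0.27 on the log2 scale. Il6 rose by 3.03 ± 0.23 and thrombomodulin (Thbd), an endothelial anticoagulant receptor, by 3.01 ± 0.18.

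Among genes with a mean of at least 50 and no overlap between conditions, the largest fall was that of Aldh1a1 (chr19:20492715-20643465), a retinaldehyde dehydrogenase. It had 214, 206 and 258 with PBS and 31, 26 and 31 with mOSM (-2.90 ± 0.13, adjusted p = 1.95e-13). Adcyap1r1 (chr6:55451978-55501451), the receptor of the neuropeptide PACAP, had 106, 126 and 122 with PBS and 14, 16 and 17 with mOSM (-2.84 ± 0.14, adjusted p = 1.23e-12). Both genes were lower in every mOSM library than in any PBS library, as the selection required. Anxa1, the anti-inflammatory annexin A1, had 296, 285 and 409 with PBS and 72, 68 and 65 with mOSM (-2.24 ± 0.11). Other falls among the 12 largest included the matrix genes thrombospondin 2 (Thbs2, -2.11), Col6a1 (-1.89), Col15a1 (-1.83) and Adamtsl3 (-2.23), together with the transporter Abca8a (-2.31), the proprotein convertase Pcsk6 (-2.15), the RNA helicase Ddx60 (-1.91) and the glycosyltransferase B3galt2 (-1.81).

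**Figure D2:**
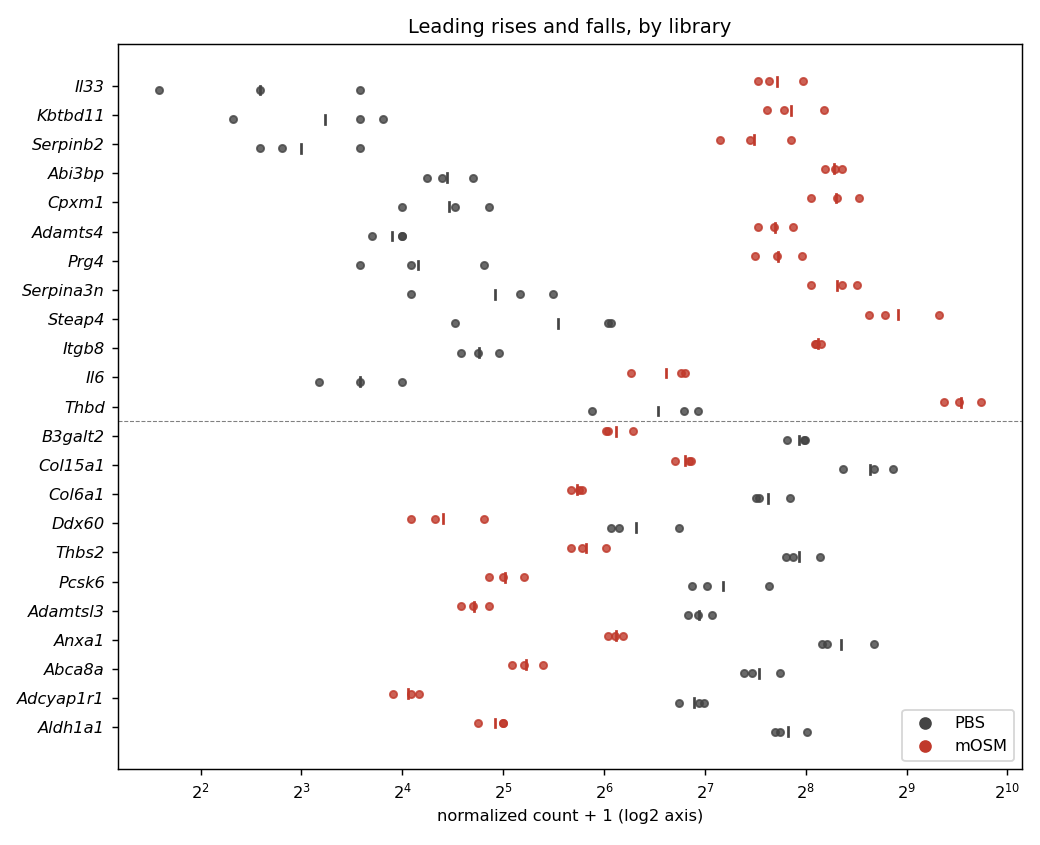
Normalized count + 1 (horizontal log2 axis) of the 12 genes with the largest rise and 11 of the 12 with the largest fall among genes with a mean of at least 50. Each point is 1 library (PBS grey, mOSM red) and each vertical bar the geometric mean of 3. Genes whose PBS and mOSM libraries overlap were left out by the selection.

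By the size of the difference in value, which favors abundant transcripts, the rises were led by 1110002E22Rik, a gene without a name, with 2054, 1911 and 1763 with PBS and 3805, 4108 and 4170 with mOSM (1.08 ± 0.06). Star, which carries cholesterol into mitochondria, had 252, 200 and 99 with PBS and 1024, 1256 and 1620 with mOSM (2.89 ± 0.22, adjusted p = 1.49e-09). Its lowest PBS value was that of replicate 3, which also held the highest mOSM value. The centrosomal protein gene Tacc2 (0.51), the methyl-CpG binding gene Mbd1 (1.18), the kinase gene Hipk1 (0.87) and the anchoring protein gene Akap11 (0.63) were also among the 8 largest. The falls were led by Ttn with 32687, 32934 and 33150 with PBS and 23070, 21576 and 24076 with mOSM (-0.52 ± 0.05, adjusted p = 1.30e-07). Its share of a library's total was at least 1.14% with PBS and at most 0.834% with mOSM. Under quantile normalization Ttn, the highest value of every library, is 0 by construction. Others among the 8 largest were the transcription factor gene Zbtb20 (4238, 4160 and 4198 with PBS and 2846, 2722 and 2804 with mOSM, -0.59 ± 0.05), Ryr2, Dsp, Pde4dip, Myh6 and Macf1.

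The receptor itself was raised. Osmr (chr15:6813577-6874969) had 762, 735 and 560 with PBS and 1264, 1323 and 1391 with mOSM (0.96 ± 0.10, adjusted p = 1.23e-07), and no library of a condition overlapped with the other. Il6st, encoding gp130, rose slightly (1904, 1791 and 1944 with PBS and 2079, 2202 and 2139 with mOSM, 0.19 ± 0.05, adjusted p = 0.0045), while Lifr had 344, 328 and 431 with PBS and 385, 405 and 325 with mOSM and did not pass (0.02, 95% interval -0.16 to 0.20, adjusted p = 0.889). Per kilobase of exon, mean values with PBS were 169 for Il6st, 56.6 for Osmr and 34.1 for Lifr. Of the kinases, Jak2 was raised (408, 433 and 454 with PBS and 612, 605 and 598 with mOSM, 0.49 ± 0.06), and so was the less abundant Jak3 (1.00), whereas Jak1 lay within 0.05 of 0 (910, 903 and 920 with PBS and 920, 933 and 945 with mOSM, 0.03, adjusted p = 0.635). In all, 4 of the 10 tested receptor and kinase genes were raised and 1 was lowered, Il6ra (-0.73, adjusted p = 0.0317), which no longer passed with the block (adjusted p = 0.0683) or without PBS replicate 2 or 3 or mOSM replicate 1 or 2.

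Among STAT factors, Stat3, the main mediator of gp130 signals, rose modestly (1092, 1047 and 990 with PBS and 1294, 1315 and 1370 with mOSM, 0.35 ± 0.05, adjusted p = 3.75e-05) and Stat5a rose (0.60, with libraries that overlapped), whereas Stat5b fell (-0.24). Socs3 (chr11:117966079-117970047), a direct STAT3 target that blocks gp130, was the most strongly raised of the 16 tested inhibitors of the pathway. Its normalized counts were 199, 209 and 168 with PBS and 763, 809 and 875 with mOSM (2.08 ± 0.08, adjusted p = 2.06e-14), about a quadrupling without overlap. Only 1 other inhibitor, the phosphatase gene Ptpn1, was raised (0.44), and none was lowered, which at 12.5% raised was not above the 15.4% of all genes. Ligands of the family responded as well. Of the 5 tested, 4 were raised, namely Il6, with 8, 15 and 11 with PBS and 111, 76 and 108 with mOSM (adjusted p = 1.72e-09), Il11 (8, 11 and 16 with PBS and 37, 24 and 28 with mOSM, 1.30 ± 0.25), Clcf1 (49, 50 and 43 with PBS and 116, 119 and 104 with mOSM, 1.24 ± 0.12) and Lif (77, 68 and 92 with PBS and 119, 131 and 129 with mOSM, 0.68 ± 0.12). Ctf1, encoding cardiotrophin 1, was lowered (18, 18 and 21 with PBS and 12, 11 and 12 with mOSM, -0.66 ± 0.22), but did not pass with the block (adjusted p = 0.087, limma) or without PBS replicate 1, 2 or 3 or mOSM replicate 1 or 2. Osm was listed at 0 in all 6 libraries.

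The promoters of raised genes were searched for the letters of the STAT binding site, TTCNNNGAA, in windows from 250 bases before to 50 bases after the gene starts of RefSeq (GRCm38.p6). Windows were found by symbol for 9763 of the 13182 gene symbols tested. The letters stood in 6.80% of the 12537 windows of tested genes, in 8.39% of the windows of raised genes and in 5.46% of those of lowered genes. In genes raised at least 2-fold the share was 12.0%, and in those raised at least 4-fold, a limit added after the data were seen, it was 22.8% of 79 windows (18 windows), against 8.30% of all 32851 windows of the table. The letters are the same on both strands, several windows can belong to 1 gene, and a match is no evidence of binding. Stretches around the match, in capitals with its flanks in lower case and in the direction of transcription, are shown for 6 raised genes as examples of a JAK-STAT inhibitor, a metalloreductase, a serpin, an adhesion molecule, a hormone and a prothrombinase, picked for display among raised genes whose window holds the letters:
Socs3: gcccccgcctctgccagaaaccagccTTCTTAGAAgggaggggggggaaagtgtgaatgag
Steap4: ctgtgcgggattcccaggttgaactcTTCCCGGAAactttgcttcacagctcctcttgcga
Serpinb2: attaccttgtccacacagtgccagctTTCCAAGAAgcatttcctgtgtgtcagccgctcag
Sele: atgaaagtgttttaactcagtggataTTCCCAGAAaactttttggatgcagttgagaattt
Fgf23: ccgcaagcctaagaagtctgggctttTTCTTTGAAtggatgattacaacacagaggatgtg
Fgl2: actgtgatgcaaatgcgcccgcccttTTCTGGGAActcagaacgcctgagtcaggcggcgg
These stretches lie on GRCm38.p6 at chr11:117969486-117969546 (minus strand) for Socs3, chr5:7960330-7960390 (plus strand) for Steap4, chr1:107511407-107511467 (plus strand) for Serpinb2, chr1:164048068-164048128 (plus strand) for Sele, chr6:127072775-127072835 (plus strand) for Fgf23 and chr5:21372611-21372671 (plus strand) for Fgl2. The first base of the match lies 154, 116, 77, 140, 101 and 36 bases before the RefSeq start used here, in that order. For Socs3 and Serpinb2 this start differs from that of the gene coordinates given above, and the match lies inside those coordinates. Fgl2 had 377, 341 and 304 with PBS and 782, 819 and 789 with mOSM (1.23 ± 0.08, adjusted p = 5.79e-11), and the values of the others are given with the leading genes or their lists. The windows of Il33, Osmr, Timp1 and Serpina3n do not hold these letters.

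Other letters were searched on both strands. The AP-1 site TGACTCA stood in 3.81% of the windows of tested genes, 8.73% of those raised at least 2-fold and 8.16% of those lowered at least 2-fold. The MEF2 box, bound by a factor of muscle genes, stood in 1.84% of tested, 3.23% of lowered and 1.76% of raised windows. The CArG box of serum response factor stood in 1.32%, 1.42% and 1.51% of these, the ERR site in 0.279%, 0.142% and 0.439%, and the E-box CACGTG in 9.99%, 8.87% and 9.47%. Stretches that hold more than 1 of these motifs were counted for each of them, and the shares were not tested.

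Counts over gene lists are read beside the 15.4% raised and 15.8% lowered of all genes. Counts of 5 or fewer often moved by more than 1.5 times when a library was left out, mostly PBS replicate 3 or one of the mOSM replicates, and rest on few genes. A member that was low with PBS could be tested only if it was high enough with a cytokine: 248 of the 2031 raised genes reached a value of 10 in fewer than 3 PBS libraries, and 250 of the 2089 lowered genes did so in fewer than 3 mOSM libraries. Shares of lists with many such members are not comparable with the background. Parts of the exons of Spry1, Irs1, Ccnd1, Nppa and Tapbp overlap with other genes, so that their values may be shared with these. The lists were chosen with earlier results of these data known, and among them that of acute phase proteins and known STAT3 targets had the largest share raised. Of its 36 members 19 were tested, and 2 of those raised reached 10 in fewer than 3 PBS libraries. Members raised were 18 and none was lowered, with a median over the 19 of 1.28 on the log2 scale. Besides Serpina3n and Steap4, they included osteopontin (Spp1, 131, 93 and 104 with PBS and 324, 394 and 424 with mOSM, 1.80 ± 0.13), the metalloproteinase inhibitor Timp1 (98, 87 and 68 with PBS and 225, 256 and 268 with mOSM, 1.57 ± 0.11, adjusted p = 5.03e-10), the interleukin-4 receptor Il4ra (170, 149 and 151 with PBS and 524, 508 and 532 with mOSM, 1.73 ± 0.07) and lipocalin 2 (Lcn2, 3, 5 and 1 with PBS and 17, 13 and 27 with mOSM, 2.40 ± 0.38). All 3 mOSM libraries exceeded all PBS libraries for each of them. Ceruloplasmin (Cp), the member with the highest value, rose by 0.42 ± 0.06. Cebpd, a transcription factor gene of the acute phase, rose by 1.44 ± 0.16, Bcl3 by 0.97 ± 0.11 and the kinase gene Pim3 by 1.00 ± 0.09.

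Chemokines were raised in 9 and lowered in 2 of 16 tested, but 6 of the 9 reached 10 in fewer than 3 PBS libraries and so entered the test through libraries with a cytokine. The eosinophil attractant Ccl11 had 8, 6 and 4 with PBS and 52, 58 and 59 with mOSM (3.07 ± 0.24, adjusted p = 1.80e-09) and the monocyte attractant Ccl8 had 0, 1 and 2 with PBS and 38, 41 and 25 with mOSM (4.26 ± 0.37). Both went from near 0 to low but measurable values. Cxcl14 (2.24), the neutrophil attractant Cxcl3 (2.04) and Cxcl9 (1, 2 and 3 with PBS and 12, 5 and 8 with mOSM, 1.62) also rose. The 2 that fell, named after their values were seen, were fractalkine (Cx3cl1, -0.84) and Ccl9 (-0.87), the latter not without PBS replicate 3 or mOSM replicate 2 or 3. Cxcl12, with the highest value of the list, was 0.15 with an adjusted p of 0.0456 that rose above the threshold with the block (adjusted p = 0.0941) or without any 1 of 10 libraries.

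Interleukins and TNF ligands diverged, with 2 of 11 tested raised and 4 lowered. Both raised members, Il33 and Tnfsf11, reached 10 in fewer than 3 PBS libraries, and 1 of the lowered did so in fewer than 3 mOSM libraries. Tnfsf11, encoding RANKL, was listed at 0 in the 3 PBS libraries and at 22, 17 and 18 with mOSM. Tslp, an epithelial cytokine that activates dendritic cells, had 87, 82 and 91 with PBS and 9, 9 and 11 with mOSM (-3.04 ± 0.16, adjusted p = 3.13e-12), and Il15 had 89, 101 and 169 with PBS and 42, 47 and 37 with mOSM (-1.44 ± 0.19). Every mOSM library was below every PBS library for both. Cytokine receptors were raised in 8 and lowered in none of 22, among them Il13ra2, a decoy receptor of interleukin-13 (1, 1 and 1 with PBS and 17, 9 and 11 with mOSM, not past the threshold without mOSM replicate 1 or 3 or hlOSM replicate 3), Il17ra (146, 126 and 82 with PBS and 333, 341 and 398 with mOSM, 1.63 ± 0.14), Il1r1 (212, 196 and 155 with PBS and 448, 479 and 535 with mOSM, 1.38 ± 0.10) and Il4ra, whereas Il1rl1, the receptor of interleukin-33, did not exceed 5 in any library and was not tested.

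Among leukocyte adhesion molecules, both endothelial selectins rose. P-selectin (Selp) had 37, 35 and 34 with PBS and 182, 196 and 252 with mOSM (2.52 ± 0.11, adjusted p = 1.65e-13) and E-selectin (Sele) had 36, 34 and 25 with PBS and 162, 154 and 194 with mOSM (2.40 ± 0.14, adjusted p = 1.42e-11). The libraries of the 2 conditions were far apart for both selectins. The hyaluronan receptor Cd44 rose (0.91) and so did Podxl (0.59), and Jam2, named after its value was seen, fell (-0.28), which makes 4 raised and 1 lowered of 13 tested. Of the 10 endothelial markers, 7 were raised, among them Cdh5 (0.65 ± 0.07), Emcn (0.64 ± 0.13) and Kdr (0.30 ± 0.06), and 3 did not pass. The part that a shift in cell types had in the selectin changes was not tested.

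Of the tested NF-kB subunits and inhibitors, 4 of 17 were raised and 3 lowered, and 2 and 2 with the block. The wider KEGG term for NF-kappa B signaling, looked up after the data were seen, had 18 raised and 10 lowered of 66. Of these 7, Bcl3 changed most, and the others changed by less than 0.5 on the log2 scale, for example Tnip2 (0.33, not past the threshold without PBS replicate 1) and the inhibitor gene Tnfaip3 (-0.31). These counts were 2 raised without PBS replicate 1, PBS replicate 3 or mOSM replicate 1, and 1 to 5 lowered without PBS replicate 3 or PBS replicate 2. Of the AP-1, EGR, MYC and C/EBP factors, a list that also holds Runx1, 12 of 28 were raised and 5 lowered. The rises were led by Cebpd, Runx1 (178, 148 and 89 with PBS and 299, 323 and 372 with mOSM, 1.31 ± 0.17) and Ier3 (0.82 ± 0.09). Mycn fell most (-0.89), and Egr3, Egr2, Jun and Cebpg fell too. On this list 8 were raised without PBS replicate 3 or mOSM replicate 3, and 3 lowered without PBS replicate 1 or mOSM replicate 2. Myc had 262, 239 and 267 with PBS and 328, 406 and 290 with mOSM (0.40 ± 0.10, adjusted p = 0.00336), a rise without overlap. Of the MAP kinase feedback genes, Spred3, an inhibitor of RAS signaling, had 12, 15 and 11 with PBS and 102, 91 and 102 with mOSM (2.87 ± 0.18, adjusted p = 4.06e-11) and Dusp6, a phosphatase of ERK, rose by 0.73 ± 0.08, while the inhibitor gene Spry1 (34, 40 and 31 with PBS and 10, 15 and 10 with mOSM, -1.52 ± 0.22) and Dusp4 (-1.01 ± 0.13) fell, so 6 of 16 were raised and 3 lowered.

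Interferon-stimulated genes went the other way. Of 41 tested, 25 were lowered and 2 raised (Gbp2 and Parp9), with a median of -0.47. Of the 25, 8 reached 10 in fewer than 3 mOSM libraries. Ifit1, an antiviral RNA-binding protein, had 54, 79 and 115 with PBS and 19, 16 and 15 with mOSM (-2.18 ± 0.21, adjusted p = 3.52e-08) and Usp18, which removes the modifier ISG15, had 26, 22 and 42 with PBS and 6, 6 and 5 with mOSM (-2.17 ± 0.30). No mOSM library reached the lowest PBS library for either. The RNA sensor regulator Dhx58 (18, 19 and 33 with PBS and 7, 4 and 1 with mOSM, -2.44), the nucleotide kinase gene Cmpk2 (14, 8 and 28 with PBS and 3, 3 and 1 with mOSM, -2.31, not past the threshold without PBS replicate 1 or 3 or mLIF replicate 3) and the GTPase gene Iigp1 (923, 797 and 847 with PBS and 537, 540 and 613 with mOSM, -0.60 ± 0.07) also fell. The highest PBS value of Ifit1, Usp18 and Dhx58 was each that of replicate 3, and between 19 and 26 of the 41 were lowered when 1 library was left out, the fewest without mOSM replicate 2. Class I antigen presentation genes were at 0 raised and 1 lowered of 21 (Tapbp, -0.18, adjusted p = 0.0272 and 0.0695 with the block, limma), and between 0 and 4 were lowered when a library was left out, 0 without PBS replicate 3 or mOSM replicate 2 and 4 without mOSM replicate 3. Among complement genes, clusterin (Clu) rose (0.44 ± 0.08) and Cd55 fell (-0.63 ± 0.15), of 13 tested. Serpins and coagulation factors were raised in 9 and lowered in 4 of 25, with factor V (F5) at 1, 0 and 1 with PBS and 41, 51 and 24 with mOSM (4.58 ± 0.37).

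**Figure D3:**
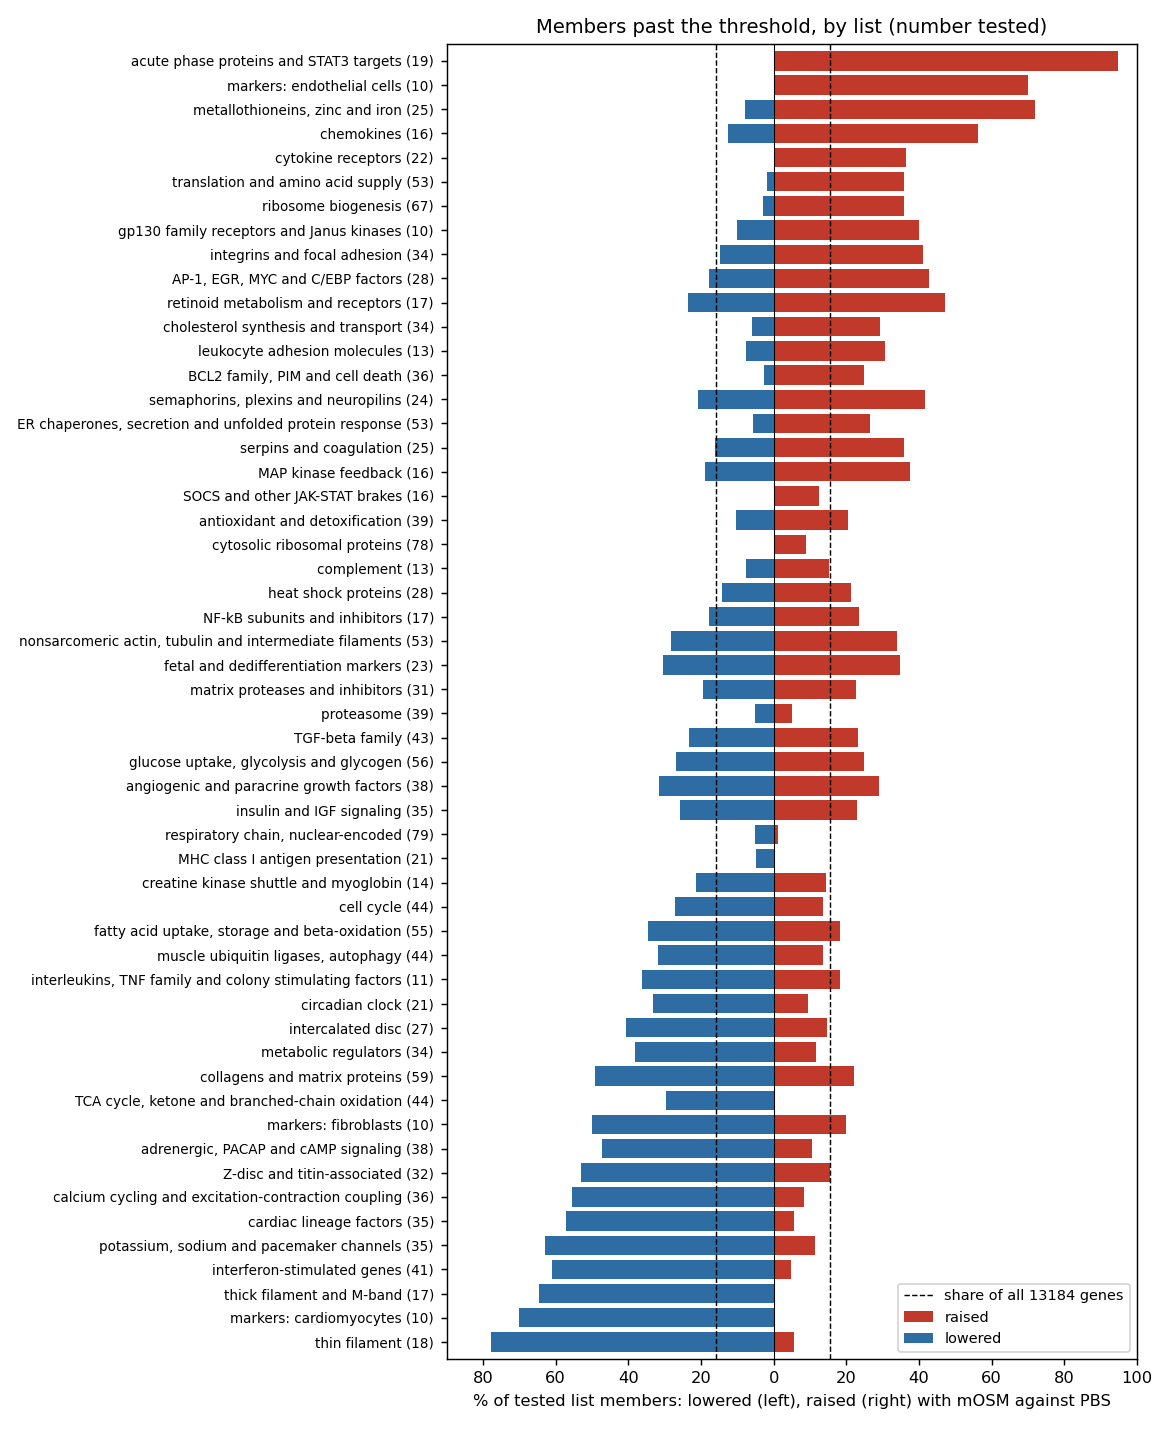
Bars give the percentage of tested members that were raised (red, to the right) or lowered (blue, to the left) with mOSM against PBS, for lists with at least 10 tested genes (number in parentheses), ordered by the difference. Dashed lines mark the shares over all genes tested, 15.4% raised and 15.8% lowered. Acute phase proteins stand at the top and the thin filament at the bottom, and the lists were chosen with earlier results of these data known.

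Collagens and matrix proteins were lowered in 29 and raised in 13 of 59 tested (median -0.23). Thbs2 had 222, 233 and 281 with PBS and 64, 54 and 50 with mOSM (-2.11 ± 0.10, adjusted p = 1.14e-12), Col6a1 had 181, 185 and 228 with PBS and 54, 53 and 50 with mOSM (-1.89 ± 0.10) and the basement membrane collagen Col15a1 had 407, 330 and 466 with PBS and 115, 114 and 103 with mOSM (-1.83 ± 0.11). All 3 were lower in every mOSM library. The basement membrane chain Col4a6 (24, 12 and 20 with PBS and 2, 3 and 1 with mOSM, -2.72) fell as well, while Col4a1, with the highest value of the list, did not pass (0.00, adjusted p = 0.988). The fibrillar collagens moved in opposite directions. Col3a1 had 394, 418 and 385 with PBS and 785, 715 and 1050 with mOSM (1.07 ± 0.12, adjusted p = 4.62e-07) and Col1a2 had 448, 434 and 572 with PBS and 245, 274 and 262 with mOSM (-0.88 ± 0.09, adjusted p = 5.97e-08). Both are fibroblast markers here, and neither showed overlap between conditions. The proteoglycan decorin (Dcn, 230, 222 and 213 with PBS and 427, 466 and 528 with mOSM, 1.09 ± 0.09) and thrombospondin 4 (Thbs4, 76, 77 and 34 with PBS and 237, 218 and 320 with mOSM, 2.10 ± 0.21) rose, and the fibroblast marker dermatopontin (Dpt, 21, 18 and 17 with PBS and 5, 5 and 8 with mOSM, -1.51 ± 0.28) fell.

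Among proteases of the matrix, 7 of 31 were raised and 6 lowered. Adamts4 and collagenase 3 (Mmp13, 9, 6 and 23 with PBS and 37, 61 and 37 with mOSM, 1.91 ± 0.33) rose, and the inhibitor gene Reck fell (-1.12), in contrast to Timp1. Of 34 integrin and focal adhesion genes, 14 were raised and 5 lowered. The extremes were Itgb8, given above, and Itga8, with 29, 17 and 18 with PBS and 1, 2 and 2 with mOSM (-3.05 ± 0.37, adjusted p = 1.04e-06). The kinase gene Ptk2b rose (31, 35 and 19 with PBS and 88, 74 and 98 with mOSM, 1.61 ± 0.18) and the collagen receptor Itga11 fell (-1.69 ± 0.27).

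Genes of the nonsarcomeric cytoskeleton were split, with 18 raised and 15 lowered of 53 tested. The intermediate filament gene nestin (Nes) had 408, 483 and 267 with PBS and 732, 622 and 1063 with mOSM (1.06 ± 0.16), and the annexin gene Anxa3 fell (172, 192 and 218 with PBS and 91, 85 and 93 with mOSM, -1.10 ± 0.12). The raised count was 11 without PBS replicate 3, mOSM replicate 2 or mOSM replicate 3. Smooth muscle genes fell, with Acta2 at 199, 200 and 278 with PBS and 76, 92 and 79 with mOSM (-1.43 ± 0.13, adjusted p = 2.07e-08), Myh11 at 25, 25 and 42 with PBS and 8, 6 and 4 with mOSM (-2.18 ± 0.26) and Myl9 at 26, 21 and 23 with PBS and 6, 7 and 12 with mOSM (-1.43 ± 0.26). Acta2 and Myh11 are themselves among the markers of smooth muscle cells and pericytes, of which 7 of 9 fell with a median of -0.63.

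Genes of metal handling were raised in 18 and lowered in 2 of 25 (median 0.33). Metallothionein 1 (Mt1) had 75, 57 and 45 with PBS and 154, 223 and 182 with mOSM (1.66 ± 0.16, adjusted p = 4.11e-08), with no overlap. Steap4 and the iron-binding lipocalin gene Lcn2 belong to this list too. The iron hormone hepcidin (Hamp) had low values (4, 1 and 1 with PBS and 7, 10 and 14 with mOSM, 2.02 ± 0.40). Extracellular superoxide dismutase (Sod3), of the antioxidant list, had 27, 28 and 26 with PBS and 93, 108 and 89 with mOSM (1.80 ± 0.14, adjusted p = 1.48e-09), and the cystine transporter gene Slc7a11 rose (1.06 ± 0.16), 8 of 39 being raised and 4 lowered.

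Of 17 tested genes of the retinoid pathway, 8 were raised and 4 lowered. Of the 8, 4 reached 10 in fewer than 3 PBS libraries, Cyp26b1, Aldh1a3 and Rdh12 among them. The retinoic acid hydroxylase Cyp26b1 had 5, 4 and 1 with PBS and 81, 82 and 121 with mOSM (4.58 ± 0.32, adjusted p = 4.54e-10) and the synthesizing enzyme Aldh1a3 had 4, 5 and 5 with PBS and 71, 78 and 66 with mOSM (3.68 ± 0.19, adjusted p = 2.77e-12). Both thus rose from very low values, while Aldh1a1 fell. Per kilobase of exon, the mean values of Aldh1a1 and Aldh1a3 were 45.8 and 1.01 with PBS and 5.94 and 15.5 with mOSM. Rdh12, a retinol dehydrogenase, rose (2.92 ± 0.31), and the receptor gene Rxra fell (-0.24).

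Growth factors changed in both directions (11 raised and 12 lowered of 38). Fgf23, a hormone of phosphate balance, had 2, 0 and 2 with PBS and 41, 77 and 47 with mOSM (4.70 ± 0.35, adjusted p = 1.27e-09), and Angptl4, an inhibitor of lipoprotein lipase, had 158, 113 and 68 with PBS and 451, 568 and 620 with mOSM (2.33 ± 0.19, adjusted p = 4.71e-09). Fgf7 (42, 45 and 43 with PBS and 17, 9 and 15 with mOSM, -1.64 ± 0.22) and angiopoietin 1 (Angpt1, 90, 85 and 164 with PBS and 37, 40 and 32 with mOSM, -1.55 ± 0.18) fell. The highest PBS value of Angpt1 was that of replicate 3. In the TGF-beta family, 10 of 43 were raised and 10 lowered. The activin subunit Inhbb had 45, 38 and 37 with PBS and 219, 219 and 274 with mOSM (2.54 ± 0.13, adjusted p = 1.87e-12) and Bmp2 had 13, 4 and 12 with PBS and 32, 53 and 34 with mOSM (2.03 ± 0.29), whereas Gdf6 (-1.91 ± 0.22) and the pseudoreceptor gene Bambi (-1.33 ± 0.11) fell. In insulin and IGF signaling, 8 of 35 were raised and 9 lowered. Igfbp3 had 72, 52 and 45 with PBS and 278, 322 and 342 with mOSM (2.48 ± 0.13, adjusted p = 1.89e-12) and the adaptor Irs1 had 313, 308 and 370 with PBS and 164, 146 and 171 with mOSM (-1.04 ± 0.08, adjusted p = 3.13e-09), both without overlap. The pseudokinase genes Trib1 (151, 142 and 121 with PBS and 337, 377 and 361 with mOSM, 1.38 ± 0.09) and Trib2 (173, 184 and 164 with PBS and 89, 75 and 90 with mOSM, -1.03 ± 0.10) moved in opposite directions. Semaphorins and their receptors were raised in 10 and lowered in 5 of 24, led by Sema3e (1.71 ± 0.22), Sema6b (1.66 ± 0.14) and Sema4c (1.52 ± 0.18), with Sema3d falling (-1.29 ± 0.30), and 3 were lowered without PBS replicate 3.

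Cyclin D1 (Ccnd1), which drives entry into the cell cycle, had 278, 295 and 304 with PBS and 90, 98 and 77 with mOSM (-1.72 ± 0.09, adjusted p = 6.07e-12). Of 44 cell cycle genes, 12 were lowered and 6 raised, but 6 were lowered without PBS replicate 3 and 8 with the block. Among the raised were Cdkn2d (0.92), an inhibitor of CDK4, and Gadd45g (122, 133 and 133 with PBS and 245, 252 and 230 with mOSM, 0.90 ± 0.08). The kinase genes Cdk4 and Cdk2 were raised as well, and Cdkn2c, another inhibitor gene of CDK4, was lowered. Genes of cell death and survival were raised in 9 and lowered in 1 of 36, with Casp4 (1.34 ± 0.18) and Pim3 changing most, and Mcl1, with the highest value, at 0.05 (adjusted p = 0.557).

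Transcripts for making proteins were raised in part, by small amounts. Ribosome biogenesis genes were raised in 24 and lowered in 2 of 67 (median 0.14), with the polymerase I subunits Polr1b (205, 181 and 182 with PBS and 273, 260 and 266 with mOSM, 0.49 ± 0.07) and Polr1c (0.56) and the processing factor Rcl1 (0.59) among them. Genes of translation and amino acid supply were raised in 19 and lowered in 1 of 53 (median 0.10; 6 lowered without mOSM replicate 3), for example Eif6 (113, 113 and 115 with PBS and 174, 172 and 166 with mOSM, 0.58 ± 0.07) and the serine synthesis enzyme Psat1 (0.63). Of 53 genes of the endoplasmic reticulum, 14 were raised and 3 lowered, Ssr4, a translocon subunit, rising by 0.58 ± 0.14 and the stress factor Ddit3 falling by 0.59 on the log2 scale. Ribosomal proteins were raised in 7 of 78 (9.0%) and lowered in 0 (limma), with 3 to 12 raised when 1 library was left out, 3 without PBS replicate 3 or mOSM replicate 3, 4 without mOSM replicate 2 and 12 without mOSM replicate 1. Those 7 were fewer than the background share of 15.4% would give. The proteasome was at 2 raised and 2 lowered of 39, although 7 were lowered without mOSM replicate 3.

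Most contractile genes tested fell. In the thick filament and M-band list, 11 of 17 tested genes were lowered and none raised (median -0.31), and in the thin filament list 14 of 18 were lowered and 1 raised (median -0.32), against 15.8% lowered over all genes. The myosin heavy chain Myh6 had 3631, 3603 and 4060 with PBS and 2721, 2750 and 3436 with mOSM (-0.35 ± 0.08, adjusted p = 0.00106), with the third mOSM library closest to PBS. The slow chain Myh7, which is high in the fetal ventricle and in failing rodent hearts, fell too (457, 463 and 475 with PBS and 331, 305 and 399 with mOSM, -0.44 ± 0.08, adjusted p = 2.08e-04). Troponin T (Tnnt2) had 1924, 1786 and 1972 with PBS and 1208, 1343 and 1496 with mOSM (-0.49 ± 0.07, adjusted p = 4.02e-06). For each of these genes all mOSM values were below all PBS values. The kinases of the myosin light chain, Mylk3 (1077, 1056 and 1293 with PBS and 630, 567 and 689 with mOSM, -0.86 ± 0.08) and Mylk4 (-0.78 ± 0.09), were among the thick filament genes that fell. Of the thin filament, Tpm2 (-1.23 ± 0.25), nebulin (Neb, -0.72 ± 0.10), Lmod3 (-0.71 ± 0.10) and nebulette (Nebl, 1686, 1604 and 1814 with PBS and 1074, 1027 and 1130 with mOSM, -0.66 ± 0.06) fell most.

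The actins did not move as a group. Cardiac actin (Actc1) had 967, 917 and 1029 with PBS and 769, 856 and 935 with mOSM (-0.19 ± 0.07, adjusted p = 0.0322), a fall with libraries that overlapped, which did not pass without PBS replicate 1, PBS replicate 3, mOSM replicate 1 or mOSM replicate 2. Skeletal actin (Acta1), which is re-expressed in stressed hearts, rose (354, 303 and 323 with PBS and 372, 420 and 420 with mOSM, 0.31 ± 0.08, adjusted p = 0.00322). Other genes used as signs of a fetal or dedifferentiated state were divided, with 8 raised and 7 lowered of 23 tested. Among these, Dcn is also a fibroblast marker here, and Acta2 and Tagln are markers of smooth muscle cells and pericytes. Runx1, Nes, Dcn, the receptor tyrosine kinase Kit (27, 28 and 28 with PBS and 62, 60 and 64 with mOSM, 1.14 ± 0.13) and Dab2 (145, 141 and 152 with PBS and 194, 209 and 196 with mOSM, 0.45 ± 0.07) rose, Acta2 and Tagln (-1.30, with 67.9% of its exonic length overlapping with a gene on the other strand) fell, and the natriuretic peptide genes did not pass (Nppa -0.27, adjusted p = 0.0508, and Nppb 0.07, adjusted p = 0.58).

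Z-disc genes were lowered in 17 and raised in 5 of 32. Ldb3, an actinin partner, had 1190, 1089 and 1279 with PBS and 698, 713 and 665 with mOSM (-0.77 ± 0.06, adjusted p = 1.33e-09), and telethonin (Tcap, 203, 208 and 264 with PBS and 131, 123 and 134 with mOSM, -0.78 ± 0.09) and Fsd2 (-0.85 ± 0.08) fell, while the LIM domain gene Pdlim1 (84, 88 and 76 with PBS and 141, 168 and 138 with mOSM, 0.84 ± 0.11) rose. The xin repeat gene Xirp2, with the highest value of the list, did not pass (-0.11, adjusted p = 0.218). In the intercalated disc, which joins cardiomyocytes end to end, 11 of 27 were lowered and 4 raised. Desmoplakin (Dsp) had 3633, 3557 and 3861 with PBS and 2593, 2535 and 2991 with mOSM (-0.45 ± 0.06, adjusted p = 2.61e-06), Ank2 fell (-0.41 ± 0.06), and 2 were raised without PBS replicate 3.

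Calcium cycling genes were lowered in 20 and raised in 3 of 36 (median -0.29). The release channel Ryr2 had 5977, 5777 and 6228 with PBS and 4779, 4742 and 5122 with mOSM (-0.30 ± 0.05, adjusted p = 6.74e-05), the L-type channel subunit Cacna1c had 1236, 1286 and 1355 with PBS and 895, 808 and 890 with mOSM (-0.58 ± 0.06, adjusted p = 3.91e-08) and its partner Cacnb2 had 329, 293 and 388 with PBS and 203, 185 and 181 with mOSM (-0.82 ± 0.09). All mOSM values lay below all PBS values in these 3 genes. Phospholamban (Pln), the brake of the calcium pump, fell (1641, 1512 and 1741 with PBS and 1017, 1154 and 1203 with mOSM, -0.54 ± 0.07), with 64.7% of its exonic length overlapping with a gene on the other strand. The pump itself, Atp2a2, had 3627, 3458 and 3700 with PBS and 2948, 3156 and 3550 with mOSM and just missed the threshold (-0.16, adjusted p = 0.0513). The T-type channel gene Cacna1h fell most (24, 22 and 29 with PBS and 15, 8 and 10 with mOSM, -1.15 ± 0.29). Of the 3 genes that rose, Fkbp1a (0.39) and Orai1 (0.43) are named after their values were seen, and 1 of the 3 was left without PBS replicate 2.

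Ion channels of the membrane were lowered in 22 and raised in 4 of 35, with a median of -0.45. The background potassium channel Kcnk2 had 45, 31 and 41 with PBS and 9, 13 and 7 with mOSM (-1.93 ± 0.24, adjusted p = 1.63e-06). The voltage-gated potassium channel genes Kcnv2 (15, 18 and 14 with PBS and 6, 6 and 5 with mOSM, -1.32 ± 0.35) and Kcna4 (14, 11 and 14 with PBS and 6, 4 and 2 with mOSM, -1.56 ± 0.40) fell from low values, the latter not without PBS replicate 1, 2 or 3. The pacemaker channel Hcn4 was the largest exception, with 40, 46 and 62 with PBS and 151, 144 and 127 with mOSM (1.51 ± 0.12, adjusted p = 3.39e-09). All mOSM values lay well above the PBS values.

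In adrenergic and cAMP signaling, 18 of 38 were lowered and 4 raised. Besides Adcyap1r1, the kinase subunit Prkar2b had 75, 69 and 77 with PBS and 21, 29 and 18 with mOSM (-1.68 ± 0.18, adjusted p = 1.57e-07), the anchoring protein gene Akap6 fell by 0.27 on the log2 scale and the G protein regulator Rgs4 fell from low values (18, 9 and 15 with PBS and 4, 7 and 3 with mOSM, -1.42 ± 0.35). The adenosine receptor gene Adora2b rose (4, 8 and 7 with PBS and 23, 16 and 10 with mOSM, 1.21 ± 0.33), but not past the threshold without mOSM replicate 1. Among cardiac lineage factors, 20 of 35 were lowered and 2 raised. Mef2c had 696, 624 and 701 with PBS and 400, 407 and 420 with mOSM (-0.72 ± 0.06, adjusted p = 4.83e-09), and Klf15 (25, 20 and 28 with PBS and 12, 13 and 14 with mOSM, -0.85 ± 0.21) fell too, while Nfatc4, a calcineurin target, rose from low values (7, 8 and 6 with PBS and 12, 16 and 23 with mOSM, 1.13 ± 0.29). Circadian regulators were lowered in 7 and raised in 2 of 21, with Per3 (187, 179 and 227 with PBS and 105, 102 and 95 with mOSM, -0.96 ± 0.09) falling and Bhlhe41 (0.78 ± 0.07) rising.

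**Figure D4:**
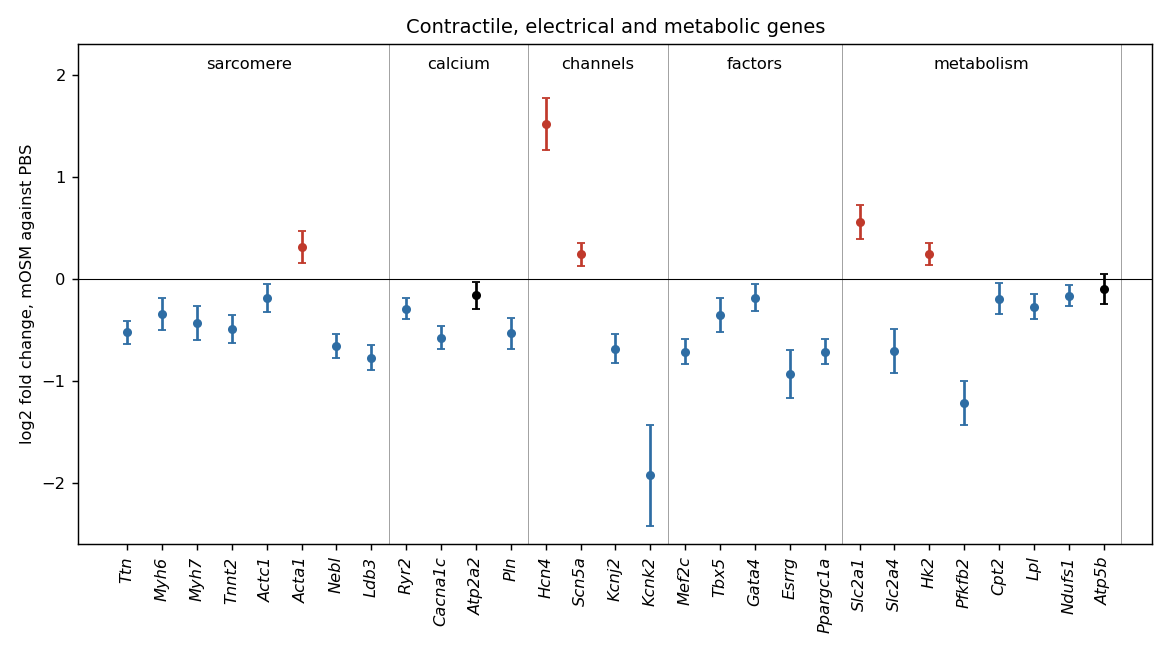
Points are log2 fold changes with mOSM against PBS and bars their 95% confidence intervals from limma, for genes of the sarcomere, calcium cycling, ion channels, transcription factors and metabolism. Blue and red points passed the threshold and black ones did not; most lie below 0, with Hcn4 (1.51) and Slc2a1 (0.55) among the exceptions. The genes were picked from the lists for display, and small changes such as those of Actc1, Gata4, Cpt2 and Ndufs1 are lost when single libraries are left out.

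Metabolic regulators were lowered in 13 and raised in 4 of 34. The coactivator Ppargc1a had 419, 422 and 413 with PBS and 257, 244 and 261 with mOSM (-0.72 ± 0.06, adjusted p = 5.26e-09), its partner Esrrg had 148, 153 and 206 with PBS and 93, 88 and 80 with mOSM (-0.94 ± 0.11) and the muscle coregulator Perm1 had 478, 459 and 561 with PBS and 304, 265 and 292 with mOSM (-0.79 ± 0.08). The 3 genes were lower in each mOSM library. Hif1a, the oxygen-sensitive factor, rose (1203, 1219 and 1215 with PBS and 1570, 1632 and 1780 with mOSM, 0.45 ± 0.06, adjusted p = 1.75e-06). Ppard rose as well, and so did Ppargc1b and Pprc1, which belong to the same coactivator family as Ppargc1a. Glucose metabolism was divided (14 raised and 15 lowered of 56; 10 and 9 without PBS replicate 3). The glucose transporter Slc2a1, which dominates in the fetal heart, had 480, 425 and 369 with PBS and 588, 596 and 680 with mOSM (0.55 ± 0.08, adjusted p = 1.68e-05), and the insulin-responsive Slc2a4 had 206, 223 and 294 with PBS and 152, 147 and 138 with mOSM (-0.71 ± 0.10, adjusted p = 1.72e-05). The 2 transporters thus moved in opposite directions without overlap. Slc16a3, a lactate exporter, rose from low values (6, 6 and 8 with PBS and 45, 34 and 29 with mOSM, 2.26 ± 0.25), the transporter gene Slc2a3 (21, 15 and 19 with PBS and 51, 70 and 46 with mOSM, 1.54 ± 0.17) and the hexosamine enzyme gene Gfpt2 (97, 99 and 74 with PBS and 212, 196 and 223 with mOSM, 1.23 ± 0.11) rose, and the heart-type regulator Pfkfb2 (164, 179 and 189 with PBS and 73, 70 and 84 with mOSM, -1.22 ± 0.10) fell.

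Of the genes for uptake, storage and oxidation of fatty acids, 19 of 55 were lowered and 10 raised. The receptor Vldlr had 1027, 1040 and 1109 with PBS and 653, 613 and 692 with mOSM (-0.70 ± 0.06) and Acsl5, an acyl-CoA synthetase, had 108, 109 and 77 with PBS and 220, 238 and 259 with mOSM (1.29 ± 0.11), in opposite directions. The lipase inhibitor gene G0s2 (15, 17 and 28 with PBS and 6, 8 and 8 with mOSM, -1.29 ± 0.29), the fatty acid binding gene Fabp4 (-0.95 ± 0.22) and lipoprotein lipase (Lpl, -0.27 ± 0.06) fell, while Cpt1b did not pass (-0.05, adjusted p = 0.922, with 81.4% of its exonic length overlapping with a gene on the same strand). The lowered count was 11 without PBS replicate 3 and 12 without mOSM replicate 1. In the TCA cycle and ketone and amino acid oxidation, 13 of 44 were lowered and none raised (median -0.14), but 5 without PBS replicate 3, 7 without mOSM replicate 1 and 18 without mOSM replicate 3. Ppm1k, the phosphatase that activates branched-chain oxidation, fell by 0.45 and Pcca by 0.38 on the log2 scale. Nuclear-encoded genes of the respiratory chain were at 4 lowered and 1 raised of 79 (median -0.08), below the background shares, with 21 lowered without mOSM replicate 3 and 0 without PBS replicate 3 or mOSM replicate 1. Atp5b, the member with the highest value, had 1415, 1380 and 1489 with PBS and 1191, 1314 and 1509 with mOSM (-0.10, adjusted p = 0.305), the third mOSM library being the highest of the 6. Cholesterol genes were raised in 10 and lowered in 2 of 34, with Scarb1 (0.83 ± 0.09) next to Star. Of the ubiquitin ligases and autophagy genes of muscle, 14 of 44 were lowered and 6 raised, with Asb15 (316, 244 and 288 with PBS and 96, 92 and 96 with mOSM, -1.56 ± 0.11, adjusted p = 6.06e-10) and Asb2 (243, 237 and 354 with PBS and 90, 97 and 98 with mOSM, -1.51 ± 0.12) falling most and Fbxo32, encoding atrogin 1, falling by 0.39 on the log2 scale. Of 28 heat shock genes, 6 were raised and 4 lowered, the lowered count ranging from 1 to 7 when a library was left out and moving by more than 1.5 times without PBS replicate 1, 2 or 3, mLIF replicate 2 or 3, or mOSM replicate 1 or 3. Among them, the small heat shock protein gene Hspb1 rose most (57, 54 and 44 with PBS and 129, 147 and 150 with mOSM, 1.45 ± 0.11, adjusted p = 1.20e-09).

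The direct test of mOSM against mLIF asks which of these responses differ between the ligands, given at the same dose and for the same time. It used the 3 mLIF libraries in place of PBS, and 797 genes (6.05%) were higher and 760 (5.76%) lower with mOSM, 619 and 542 with the replicate block. Il33 was higher with mOSM by 3.88 ± 0.34 on the log2 scale (adjusted p = 3.51e-08), its values with mLIF being 7, 18 and 18. Serpinb2 (3.63 ± 0.22), Abi3bp (3.22 ± 0.12), Itgb8 (3.18 ± 0.12) and Prg4 (3.10 ± 0.23) had the next largest differences among genes with a mean of at least 50 and no overlap. Itgb8 had 32, 27 and 30 with mLIF, close to the PBS values. Lower with mOSM were Adcyap1r1 (-2.70 ± 0.14), Aldh1a1 (-2.49 ± 0.13), Abca8a (-2.20 ± 0.11), Thbs2 (-2.03 ± 0.10) and Adamtsl3 (-1.91 ± 0.14). Differences in potency or receptor level cannot be told apart here from differences in what the receptors signal.

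Socs3 was also higher with mOSM than with mLIF (1.08 ± 0.08, adjusted p = 2.09e-09), its values with mLIF being 369, 363 and 425, between those with PBS and those with mOSM. Of the 19 acute phase and STAT3 target genes, 14 were higher with mOSM and none was lower. Of the 4 raised ligands, all were higher with mOSM than with mLIF (Il6 by 2.86 ± 0.23 and Il11 by 1.80 ± 0.25), and of 41 interferon-stimulated genes 17 were lower and 3 higher. Of contractile genes, 4 of 17 in the thick filament and 7 of 18 in the thin filament list were lower with mOSM and none was higher. Ttn was lower by 0.33 (log2, adjusted p = 1.85e-04), while Myh6 did not pass (-0.05 ± 0.08, adjusted p = 0.735). Ribosomal proteins and the respiratory chain had 0 genes past the threshold in either direction in this comparison (limma).

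Side by side against the same PBS libraries, Il33 changed by 5.13 with mOSM, 1.25 with mLIF and 5.12 with hlOSM, Aldh1a1 by -2.90, -0.41 and -2.78, and Hcn4 by 1.51, 1.07 and 1.85. Because these contrasts share their control libraries, their similarity is not a test.

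**Figure D5:**
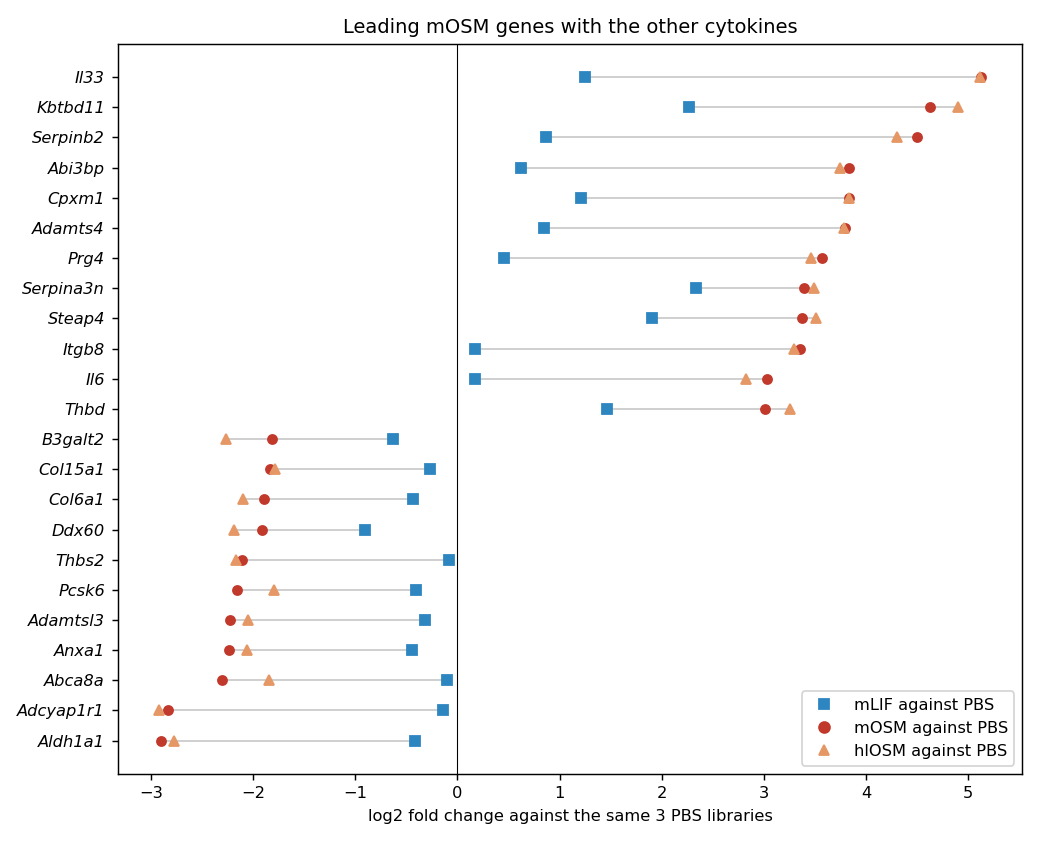
Log2 fold changes against the same 3 PBS libraries (horizontal axis) of 23 leading mOSM genes with mLIF (blue squares), mOSM (red circles) and hlOSM (orange triangles). The mLIF squares lie nearer to 0 than the mOSM circles in every gene shown, for example 1.25 against 5.13 for Il33, but the genes were chosen for their large change with mOSM, which favors this order.

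Some abundant genes stayed close to their PBS level. Among genes with a mean of at least 500 and a fold change within 0.05 of 0 on the log2 scale, the narrowest 95% intervals belonged to Jak1 (-0.07 to 0.13), the RNA-binding gene Prrc2c (-0.14 to 0.06), Pcdh7 (-0.11 to 0.09), Usp9x (-0.10 to 0.09), Nsd1 (-0.12 to 0.08) and Tulp4 (-0.13 to 0.07). Usp9x, a deubiquitinase, had 1812, 1792 and 1840 with PBS and 1802, 1771 and 1853 with mOSM. For these genes the intervals leave changes of about 0.15 or less in either direction.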

How the data were processed

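Primary cardiomyocytes of C57/Bl6 mice were treated with PBS, mLIF, mOSM or hlOSM, and RNA-seq gave 3 libraries per condition, 12 in all. Per the labels and their processing notes, reads were checked with FastQC, trimmed, aligned to mm10 with STAR 2.7.7a and counted per gene with featureCounts 1.6.5 of the Subread package. The authors deposited 1 table of normalized counts rounded to whole numbers, which were handled as a score because the normalization is not given in the sources used here. These values are not raw reads, so no count model was used, and the depth and counting error of each library are unknown.

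Genes with a value of at least 10 in at least 3 of the 12 libraries were kept. limma 3.58.1 (R 4.3.3) was fitted to log2(value + 1) of the 12 libraries with 1 mean per condition and an intensity trend, and p-values were adjusted by the Benjamini-Hochberg method over all 13184 genes. Fold changes are on the log2(value + 1) scale, which understates changes of low genes. The fit was tested on simulated data with known changes. The simulated libraries were independent, so that this test does not cover the near absence of a replicate effect in the deposited values. Tables were made with Python 3.11.15, pandas 2.3.3 and numpy 2.4.6.

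Genes were named by rule: the 12 largest rises and falls with a mean of at least 50 and no overlap, up to 4 members past the threshold and the member with the highest value of each list, a set of fixed genes, the 8 largest differences in value each way, the 5 largest differences from mLIF each way, and 6 genes that did not move. Members and lists were chosen with earlier results of these data known. Ctf1, Cx3cl1, Ccl9, Jam2, Fkbp1a, Orai1, Fgl2, Gbp2, Parp9, Egr3, Egr2, Jun, Cebpg and the cardiac genes Gata4, Cpt2 and Ndufs1 were named after their values were seen. So were Ppard, Ppargc1b, Pprc1, Cdk4, Cdk2 and Cdkn2c. Alternatives were other pseudocounts (0.1 and 5), filters (none and 50), scaling by median ratios or quantiles, robust variance estimation, the compared libraries alone, the replicate number as a block, stricter thresholds and leaving out each library. The correlations of the deviations of same-numbered mOSM and PBS libraries over 6626 genes were -0.375, -0.379 and -0.283. A correlation of -0.333 arises when a common effect of the number is absent from the values of 4 conditions, so these correlations cannot show whether the numbers mark shared preparations. Mitochondrially encoded genes were not analysed here, and a few genes that the rule names are not reported here.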

Additional observations from a re-analysis of the deposited data

How the results depend on the processing

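The numbers of raised and lowered genes stayed within 1.5 times of 2031 and 2089 under the other pseudocounts, filters, scalings and fits and when any library was left out (1706 to 2107 raised and 1467 to 2300 lowered, the fewest lowered without PBS replicate 3). Stricter thresholds gave fewer: 800 raised and 794 lowered at least 1.5-fold, 370 and 313 at least 2-fold, and 1356 lowered at an adjusted p under 0.01. Against mLIF, 797 genes were higher and 760 lower with mOSM, with 556 to 886 and 529 to 845 when a library was left out, 351 and 335 at least 1.5-fold, 189 and 138 at least 2-fold, and 499 and 430 at an adjusted p under 0.01. With the replicate block, 1648 genes were raised and 1682 lowered, and 619 were higher and 542 lower than with mLIF. All 3330 calls with the block against PBS were among the 4120 without it. Whether the numbers pair the samples could not be told from the values, since a common effect of the number is nearly absent from them and negative correlations between same-numbered libraries follow from that. No named gene changed direction past the threshold: of their values under the alternatives, 6617 kept their side of the threshold, 418 lost it and 25 gained it. Ttn was 0 under quantile normalization by construction. Of the 4120 calls, 2525 (61.3%) held with each of the 12 libraries left out in turn. The unknown depth of each library, 3 libraries per condition and the near absence of a replicate effect limit small changes most.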

Other observations

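Of 1353 genes tested that do not code for proteins, 230 (17.0%) were lowered and 104 (7.69%) raised. Of 11831 protein-coding genes, 1859 (15.7%) were lowered and 1927 (16.3%) raised. The lowered shares were thus close to each other, and the raised share was smaller in the genes that do not code for proteins. Among 209 long intergenic RNA genes, 64 (30.6%) were lowered and 22 raised. Gm12295 had 210, 185 and 264 with PBS and 73, 74 and 90 with mOSM (-1.46 ± 0.13) and Gm36827 had 285, 289 and 257 with PBS and 98, 87 and 131 with mOSM (-1.41 ± 0.11), both lower in every mOSM library, while Gm37084 (1.08 ± 0.13) and Gm34934 (0.95 ± 0.14) rose. These 4 genes were chosen after their values were seen.

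Among the KEGG pathways that the table assigns to genes, sphingolipid metabolism had 15 raised and 2 lowered genes of 36. Sphk1, which makes sphingosine 1-phosphate, had 22, 21 and 18 with PBS and 52, 46 and 50 with mOSM (1.24 ± 0.16), and Sptlc2 (0.70 ± 0.09) of the first step of the pathway and the phosphatase gene Sgpp1 (0.66 ± 0.07) also rose. N-glycan biosynthesis had 16 raised and 3 lowered of 44 and GPI-anchor biosynthesis 8 and 0 of 24, whereas propanoate metabolism had 0 raised and 13 lowered of 28. These pathways were picked after their counts were seen, and no enrichment was tested.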
